A study of Mus musculus with 27 samples.

Results

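The loci described here were the short small nucleolar RNA (snoRNA) and microRNA genes that drew reads in polyadenylated RNA separated into chromatin, nucleoplasm and cytoplasm. They were 165 genes of the 37332 in the deposited count table: 58 whose symbol starts with Snord, 31 with Snora and 76 with Mir. A gene was taken when its symbol started that way and went on with a digit, its span was under 400 bases and its count summed over the 27 libraries was at least 300. Of 795 such symbols 789 were under 400 bases and 782 remained once the Mir290 to Mir295 loci were left out. Among these 39 Snord, 9 Snora and 569 Mir genes stayed below the summed count. The loci were thus chosen by their summed count, which is given here only as a description. A locus could reach the limit through the groups where it was high, so contrasts of those groups are not independent of the choice. The members nearest to the limit were Snord60 with 300 and Snora21 with 310 reads, and the nearest genes below it were Mir19b-1 with 293 and Mir697 with 278. The 165 loci spanned 58 to 238 bases with a median of 85, and all 165 passed the low-count filter of the test.

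The samples came from 3 kinds of mouse culture: E14 embryonic stem cells (mESC) grown with LIF on gelatin, a neuronal progenitor line (mNPC) that received EGF and FGF daily, each at 10 ng/ml, and primary cortical neurons (mCtx) kept in culture for 5 days. Each was split into a chromatin-associated (Chr), a soluble nucleoplasmic (Nuc) and a cytoplasmic (Cyto) fraction in 3 biological replicates, which gave 9 groups. RNA over 200 nt was kept, polyadenylated RNA was taken with oligo-dT beads, and stranded libraries were read as 100 bp pairs. The mESC and the mNPC samples are each from 1 line, and the labels do not say whether the neuron cultures came from separate animals. The labels name no treatment or genetic change in any group.

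Most vertebrate snoRNAs are cut from introns of host genes, many of which encode ribosomal proteins or are themselves non-coding. Box C/D snoRNAs (Snord) guide ribose methylation and box H/ACA snoRNAs (Snora) guide pseudouridylation, mainly of ribosomal RNA. MicroRNAs are cut by Drosha from hairpins in longer transcripts, in introns or exons, and then by Dicer, and the mature strand guides Argonaute proteins to messenger RNAs. A mature microRNA and most mature snoRNAs are shorter than the RNA selected here and carry no long poly(A) tail. A read inside a locus cannot be told apart from a read of an unprocessed host transcript on the same strand.

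The sequences of all 89 snoRNA members were found among the GENCODE M21 transcripts (build GRCm38, the assembly also called mm10). The following are shown because the results below turn on them. Capitals mark the C box (TGATGA, else TGATG, within the first 20 bases) and the D box (CTGA within the last 20), or the ACA within the last 6 bases of a box H/ACA RNA. Snord47 lies at chr1:161038082-161038158 on the plus strand, Snord34 at chr7:45126601-45126670 on the minus strand, Snord14d at chr9:40803995-40804080 on the plus strand and Snora65 at chr2:32963291-32963420 on the plus strand.
Snord47: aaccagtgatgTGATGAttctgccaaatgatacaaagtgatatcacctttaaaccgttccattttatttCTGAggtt
Snord34: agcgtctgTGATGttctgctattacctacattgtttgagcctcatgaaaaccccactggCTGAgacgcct
Snord14d: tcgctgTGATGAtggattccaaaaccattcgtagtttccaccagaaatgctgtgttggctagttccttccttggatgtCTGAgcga
Snora65: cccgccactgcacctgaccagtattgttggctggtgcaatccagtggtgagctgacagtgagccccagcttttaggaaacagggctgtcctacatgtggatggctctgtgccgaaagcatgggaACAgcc

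TGATG stood within the first 20 bases of 53 of the 58 Snord members (91.4%) and CTGA within the last 20 of 56 (96.6%), on the transcript strand, with both in 51 (87.9%). Among all 99 Snord transcripts of M21 the shares were 87.9%, 98.0% and 85.9%, and among 2201 annotated microRNA hairpins 2.77%, 8.72% and 0.273%. ACA stood within the last 6 bases of 29 of 31 Snora members (93.5%), against 92.9% of all 42 Snora transcripts and 11.9% of the hairpins. TGATG is part of TGATGA, which 38 Snord members (65.5%) held. The members thus carried the letters of their class about as often as the class as a whole. The class includes the members, so these shares are not independent.

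Mature sequences of 72 of the 76 Mir members were found in the RefSeq table (GRCm38.p6). Seeds, bases 2 to 8 and shown in capitals, were shared by 2 sets of members. Mir25, Mir363, Mir92-1 and Mir92-2 shared AUUGCAC, and Mir29b-2 and Mir29c shared AGCACCA. The other sequences belong to loci whose fraction or cell type contrasts are given below.
miR-25-3p: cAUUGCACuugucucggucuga
miR-92a-3p: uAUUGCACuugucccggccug
miR-363-3p: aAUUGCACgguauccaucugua
miR-29b-3p: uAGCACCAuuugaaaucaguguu
miR-29c-3p: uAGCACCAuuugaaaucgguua
miR-93-5p: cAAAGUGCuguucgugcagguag
miR-7a-5p: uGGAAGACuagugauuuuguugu
miR-186-5p: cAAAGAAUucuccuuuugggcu
miR-9-5p: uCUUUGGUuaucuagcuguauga
miR-686: aUUGCUUCccagacggugaaga

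By the M21 annotation 91 loci were intronic, with transcripts of another gene on the same strand spliced over them and no exon across them. A further 45 were exonic, 18 were spliced out of some transcripts and exonic in others (mixed), and 11 lay outside any other gene on their strand. Of the Snord loci 51 of 58 were intronic and none was only exonic, of the Snora loci 23 of 31 were intronic, and of the Mir loci 17 of 76. So "intronic" describes the snoRNA loci and a minority of the microRNA loci. Among the 43 exonic Mir loci 21 lay in coding sequence, 11 in a 3'UTR, 8 in exons of non-coding transcripts, 2 in a 5'UTR and 1 in both a 3'UTR and coding sequence. By the spans of the counted genes, 140 of the 165 loci lay within a longer gene on the same strand, and the one with most reads was taken as host. There were 112 hosts, 18 of which held 2 or more members (46 in all), and 28 members lay in 22 ribosomal protein genes of the Rpl and Rps families. No member had more reads than its host (0 of 140). In 10 cases another gene lay on the opposite strand. The libraries mark strand, but the strand setting of the counting is not given in the sources used here.

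Total counts ran from 10622897 to 24537526 per library. The 165 loci took 0.198 ± 0.0386% (SD, n = 3) of the counts in mESC chromatin, 0.0949 ± 0.00515% in mNPC chromatin and 0.110 ± 0.00338% in mCtx chromatin. In cytoplasm they took 0.0715 ± 0.0123%, 0.0521 ± 0.00279% and 0.0415 ± 0.000602%. Marker sums followed the labels: 10 pluripotency genes summed to 5949 to 6793 CPM (counts scaled to a common library size) in mESC cytoplasm and to at most 571 in the cytoplasm of the others, and 11 neuronal genes to 11079 to 11980 in mCtx cytoplasm and at most 948 elsewhere in that fraction. The 10 progenitor genes summed to 7547 to 7753 CPM in mNPC cytoplasm, 706 to 732 in mESC cytoplasm and 1340 to 1781 in mCtx cytoplasm. Lists of other cell types also drew reads. The 6 astrocyte genes summed to 161 to 218 CPM in mCtx cytoplasm and 345 to 515 in mNPC cytoplasm. The 6 oligodendrocyte lineage genes summed to 1693 to 2041 in mNPC nucleoplasm and 116 to 183 in mNPC cytoplasm. The 4 endothelium genes summed to 216 to 509 in mESC nucleoplasm. The part of such cells in the results was not tested. One mESC chromatin library stood apart: replicate 1 held the lowest of the 3 values at 79 of the 89 snoRNA loci, with summed snoRNA values of 736, 1344 and 1195 CPM in replicates 1 to 3. In mESC nucleoplasm and cytoplasm replicate 1 was lowest at 42 and 47 of the 89. The share over all genes was not computed.

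The first comparison asked which loci were richer in chromatin than in cytoplasm. A locus was called when edgeR's quasi-likelihood test gave a Benjamini-Hochberg adjusted p below 0.05 over all 18226 genes tested and the log2 change was at least 1. In mESC 125 of the 165 loci were higher in chromatin, where 34.4% of all tested genes were, and 16 were lower, where 21.6% of all were. In mNPC 108 were higher (27.5% of all genes) and 13 lower (21.3%), and in mCtx 90 were higher (26.2%) and 19 lower (24.4%). The median log2 change was 3.87, 2.60 and 1.43 in mESC, mNPC and mCtx, against 0.37, 0.12 and 0 over all genes. With loci that had no read in a group set at their bound, and those at 3 reads or fewer in both groups left out, the medians were 3.76, 2.69 and 1.45. Without the mESC libraries numbered 1, a choice made after the values were seen, 126 loci were higher and 17 lower in mESC.

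The counts are given next by position in the host. Of the 91 intronic loci 86 were higher in mESC chromatin, 79 in mNPC and 62 in mCtx, with median log2 changes of 4.88, 3.52 and 2.10. Of the 45 exonic loci 16, 11 and 14 were higher and 12, 10 and 12 lower, with medians of 0.29, -0.03 and -0.13. These counts lay near the shares of all genes, 34.4%, 27.5% and 26.2% higher and 21.6%, 21.3% and 24.4% lower. The 18 mixed loci had 13, 11 and 11 higher, and the 11 outside loci 10, 7 and 3. Within the Mir class, 13, 13 and 12 of the 17 intronic loci were higher (medians 5.61, 4.70 and 3.54), against 14, 9 and 13 of the 43 exonic ones. Among the snoRNA classes 57, 54 and 43 of 58 Snord loci were higher and 30, 25 and 14 of 31 Snora loci. In all, 79 loci were higher in chromatin in all 3 cell types, of which 61 were intronic, 9 mixed, 7 exonic and 2 outside. The share of all tested genes higher in all 3 was not computed, so this count stands without a background.

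**Figure D1:**
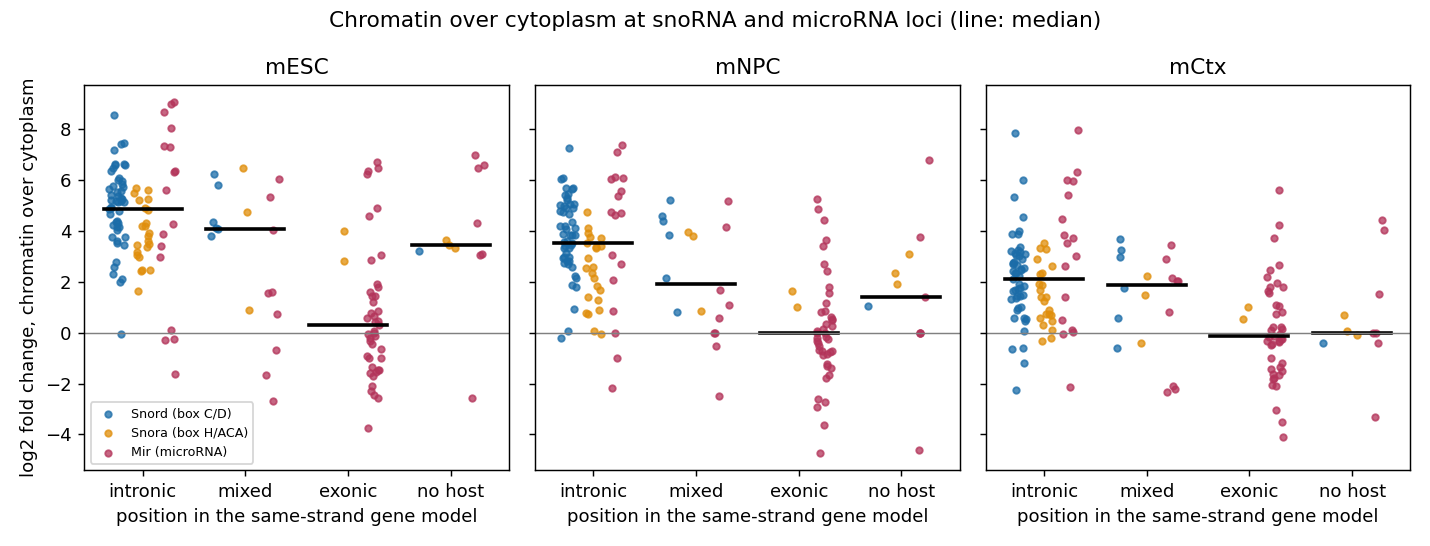
Log2 change of chromatin over cytoplasm for each locus, by position in the host, in mESC, mNPC and mCtx (each point 1 locus). Intronic loci lie mostly above 0, with medians of 4.88, 3.52 and 2.10, and exonic loci spread around 0, with medians of 0.29, -0.03 and -0.13.

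The 5 intronic loci that were not higher in mESC are named here, picked out after their values were seen. Mir3091, in an intron of Rps21, was lower in chromatin in all 3 cell types, by log2 changes of -1.64, -2.16 and -2.14. Snord42b, in Rpl23a, was called in none, with log2 changes of -0.07, -0.20 and -0.59. Its values were 1.80, 3.79 and 3.13 CPM in mESC chromatin and 1.77, 3.27 and 4.08 in mESC cytoplasm. These libraries overlap, unlike those of the 2 other Rpl23a members: Snord42a rose by 4.81 and Snord4a by 6.36 (log2) in mESC. Mir3113, Mir877 and Mir1981 were the other intronic loci not called in mESC, with log2 changes of -0.25, -0.31 and 0.13.

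Gas5, a non-coding gene whose introns carry a series of box C/D RNAs, held 4 members. Snord47 was at 15, 33.8 and 30.4 CPM in mESC chromatin and 0.147, 0.169 and 0.116 in mESC cytoplasm. It was at 9.04, 10.5 and 8.31 in mNPC chromatin and 0.0861, 0.220 and 0.0745 in mNPC cytoplasm, and at 12.6, 13.8 and 14.5 against 0.273, 0.252 and 0.456 in mCtx. Every chromatin library was above every cytoplasmic one. The log2 changes were 7.45 (SE 0.38, adjusted p = 5.0e-15), 6.11 (SE 0.38) and 5.32 (SE 0.33). Snord78, at chr1:161036984-161037049, changed by 6.62, 4.91 and 3.39, and Snord80 by 5.04 and 4.57 in mNPC and mCtx. In mESC cytoplasm Snord80 had 3 reads, a ratio of 102 (95% counting interval 34.7 to 497). Mir5117, annotated as a microRNA in another Gas5 intron, had 2 reads there (ratio 97.0, interval 26.6 to 805) and changed by 5.59 and 5.42 in mNPC and mCtx. These intervals cover counting error only. The Gas5 gene itself changed by 4.44, 0.51 and 1.09, the second of which was not called.

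Rpl13a, which encodes a protein of the large ribosomal subunit, also held 4 members, and here the host went the other way. Snord34 was at 13.1, 25.1 and 23.7 CPM in mESC chromatin and at 0.295, 0.395 and 0.233 in mESC cytoplasm. Its log2 changes were 6.03 (SE 0.43, adjusted p = 2.1e-12), 5.68 (SE 0.50) and 6.02 (SE 0.51) in mESC, mNPC and mCtx. Snord35a changed by 6.62, 5.09 and 3.87, Snord32a by 4.16, 2.98 and 3.02, and Snord33 by 2.57, 1.79 and 1.67. In mNPC the direction of Snord33 was the opposite in TPM, the length-scaled transcript abundances (log2 changes of -1.76 and -3.81 with pseudocounts of 1 and 0.1). Rpl13a changed by -2.30, -3.74 and -2.58. All 4 loci rose in chromatin in all 3 cell types while the host fell. In mESC their log2 changes ran from 2.57 to 6.62, and the differences among the 4 were not tested.

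Hspa8, which encodes a constitutive heat shock protein, held Snord14c, Snord14d and Snord14e. Snord14d was at 8.77, 21.3 and 24.4 CPM in mESC chromatin and had 2 reads in mESC cytoplasm, both in replicate 2 (0, 0.113 and 0 CPM). The ratio was 448 with a 95% counting interval of 124 to 3705. In mNPC it was at 3.16, 2.45 and 1.88 CPM against 0.0430, 0.110 and 0.0745, and in mCtx at 2.51, 1.79 and 2.26 against 0.0683, 0.302 and 0.0456. Chromatin was higher without overlap in each cell type, by log2 changes of 4.97 and 3.88 in mNPC and mCtx. Snord14e changed by 7.43, 5.44 and 2.74. Snord14c, which is 97.7% identical to Snord14d so that reads may be shared between them, changed by 6.07, 4.77 and 3.09. In TPM the mNPC directions of Snord14d (-2.72 and -5.81) and Snord14c (-0.83 and -1.85) and the mESC direction of Snord14c (-1.21 and -3.13) were the opposite. Hspa8 was lower in chromatin by -2.42 and -3.16 in mESC and mNPC, and its -0.97 in mCtx was under the minimum change.

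In 3 more hosts every member was higher in chromatin in mESC and mNPC. In the non-coding gene Snhg12, Snord99 changed by 5.80, 4.38 and 2.96 and the H/ACA loci Snora44 by 6.49, 3.96 and 2.23, Snora61 by 4.74, 3.81 and 1.49, and Snora16a by 5.22, 1.85 and 1.25. TPM had the opposite direction for Snora44 in mESC (-1.50 and -3.50) and mNPC (-1.78 and -2.98) and for Snora61 in mNPC (-0.38 and -0.99). The mCtx call of Snora16a was lost without mCtx cytoplasm replicate 3 (log2 change 0.94, adjusted p = 0.076). In 2410006H16Rik, Snord49a (4.88, 3.14 and 0.56), Snord49b (2.29, 2.17 and 0.48) and Snord65 (5.24, 2.81 and 0.97) were called in mESC and mNPC and not in mCtx. In 1810032O08Rik the 3 Snord1 loci were likewise called in mESC and mNPC only, with mESC log2 changes of 4.11 (Snord1a), 3.53 (Snord1b) and 5.20 (Snord1c). Snord1b and Snord1c are 97.4% identical and uncertain apart. In mCtx, Snord1b had a log2 change of 1.43 (adjusted p = 0.053), which passed when the counts were scaled by library totals (1.69, adjusted p = 0.020).

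**Figure D2:**
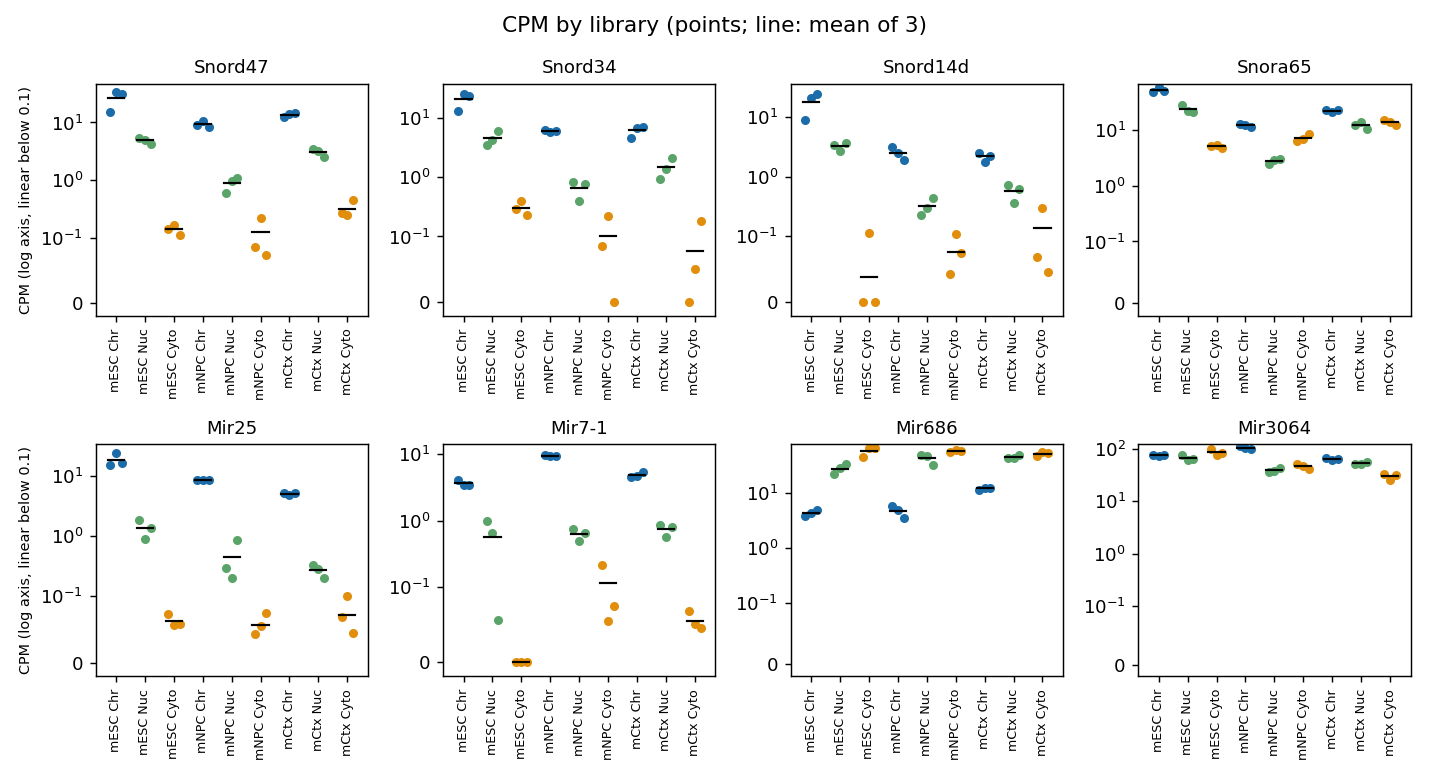
CPM in each of the 27 libraries for members the text describes (log axis, points are libraries, lines are group means of 3). Snord47 and Snord34 fall from chromatin to cytoplasm in every cell type, and Mir686 rises.

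Hosts with fewer members included ribosomal and translation genes. Snord96a, in Rack1 (a scaffold protein of the small ribosomal subunit), was at 61.7, 117 and 113 CPM in mESC chromatin and 3.61, 6.77 and 7.28 in mESC cytoplasm, without overlap. It changed by 4.03 (SE 0.25), 2.74 and 2.36, and Rack1 by -2.20, -3.37 and -2.14. Snord22, which M21 places in Snhg1, changed by 6.25 (SE 0.35), 4.59 and 3.70, but its mESC direction was the opposite in TPM (-2.86 and -5.99 with pseudocounts of 1 and 0.1, on the log2 scale). Snord12, in Zfas1, changed by 4.89, 3.86 and 1.5. Snord57 lies in Nop56, which encodes a core protein of the box C/D particle. It changed by 6.59, 2.94 and 3.99, and Nop56 by 1.12, 1.24 and 1.55.

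A snoRNA locus could also be lower in chromatin in mCtx. Snord64, at chr7:59978808-59978874, was at 0.256, 0.255 and 0.480 CPM in mCtx chromatin and 0.683, 0.755 and 0.866 in mCtx cytoplasm (log2 change -1.20, adjusted p = 0.014), and it was higher in chromatin by 4.18 and 3.61 in mESC and mNPC. The mCtx groups did not overlap.

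Of the box H/ACA loci, Snora65 in Rpl12 had narrow replicate ranges. It was at 48.9, 58.8 and 51.4 CPM in mESC chromatin and 5.30, 5.42 and 4.78 in mESC cytoplasm, a log2 change of 3.36 (SE 0.16, adjusted p = 2.2e-15). In mNPC chromatin it was at 12.7, 12.7 and 11.7 CPM against 6.54, 6.83 and 8.57 in cytoplasm, and in mCtx at 23.3, 21 and 23.5 against 15.4, 13.9 and 12.6. Chromatin was again higher without overlap, but the log2 changes of 0.76 and 0.70 were under the minimum of 1. Rpl12 changed by -2.03, -3.84 and -2.67. Snora81, in the translation factor gene Eif4a2, changed by 5.62, 3.33 and 2.65, with the opposite direction in TPM in mESC (-0.96 and -2.01) and mNPC (-1.73 and -2.84). Snora33, in Rps12, changed by 4.92, 4.76 and 2.34 and Snora75, in Ncl (nucleolin), by 5.28, 3.41 and 3.33.

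Snora73a and Snora73b encode a box H/ACA RNA known for a part in ribosomal RNA cleavage. Both lie in Rcc1 in the count table and in Snhg3 in M21, are 96.6% identical, and share an opposite-strand gene, so their split is uncertain. Snora73b was at 27.2, 62.4 and 61.4 CPM in mESC chromatin and 2.80, 9.09 and 5.94 in mESC cytoplasm, and Snora73a at 13.8, 30.2 and 33.5 against 1.10, 1.98 and 1.69. These did not overlap, and the log2 changes were 3.06 (SE 0.33) and 4.0 (SE 0.31). In mNPC and mCtx Snora73b was not called (0.72 and 0.88). Snora73a stood at the limit (1.03 and 1.00), and its call was lost under several settings, for example 0.91 and 0.95 with a filter of at least 1 CPM in 3 libraries.

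Intronic microRNA loci were nearly absent from cytoplasm in several cases. Mir25 and Mir93 lie in Mcm7, which encodes a subunit of the replicative helicase, at chr5:138165321-138165404 and chr5:138165523-138165610 on the minus strand. Mir25 was at 15.3, 23.9 and 16.5 CPM in mESC chromatin and had 1 read in each mESC cytoplasmic library, a ratio of 304 (95% counting interval 104 to 1474). In mNPC it was at 8.69, 8.62 and 8.58 CPM, a ratio of 158 (53.7 to 768), and in mCtx at 5.22, 4.90 and 5.14 against 0.0683, 0.101 and 0.0456 (log2 change 6.03, SE 0.41). Every chromatin library was above every cytoplasmic one in all 3. Mir93 had no cytoplasmic read in mESC or mCtx and was at least 61.1-fold and at least 33.0-fold higher in chromatin there, taking 3 reads over the group as the floor.

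Mir7-1 lies in an intron of Hnrnpk, which encodes an RNA-binding protein, at chr13:58392779-58392886. It was at 4.04, 3.38 and 3.35 CPM in mESC chromatin and without a read in mESC cytoplasm (at least 57.7-fold higher). In mNPC it was at 9.69, 9.38 and 9.18 CPM against 0.215, 0.0551 and 0.0745 (log2 change 6.15, SE 0.48). Mir186, in Zranb2, was at 2.63, 2.94 and 3.09 CPM in mESC chromatin and also without a cytoplasmic read (at least 46.7-fold higher). Mir1898, in Zfr, had no read in mNPC cytoplasm and was at least 21.5-fold higher in chromatin. Mir5125, in the splicing factor gene Srrm2, changed by 7.29, 6.05 and 5.96. In mESC the hosts changed by -1.94 (Mcm7), -1.85 (Hnrnpk), 0.94 (Zranb2, not called) and 1.71 (Srrm2).

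Exonic microRNA loci went both ways, about as often as all genes did. Mir686 lies in coding sequence of Psmb5, a proteasome subunit gene, at chr14:54616677-54616785. It was at 3.94, 4.36 and 5.05 CPM in mESC chromatin and 45.5, 66.7 and 67.7 in mESC cytoplasm, without overlap. Its log2 changes were -3.75 (SE 0.20, adjusted p = 1.2e-14), -3.61 and -2.11, and those of Psmb5 were -3.30, -3.04 and -1.91. Mir3064, in coding sequence of the helicase gene Ddx5, was at 75.8, 72.6 and 77.1 CPM in mESC chromatin and 101, 75.5 and 83.9 in cytoplasm, which was not called (-0.21). In mNPC and mCtx it was higher in chromatin by 1.18 and 1.08, with Ddx5 at 1.48 and 0.89. The mCtx call was lost without mCtx cytoplasm replicate 2 (log2 change 0.90). Besides Mir686 and Mir3091, the loci lower in chromatin in all 3 cell types were Mir682, which lies outside any host, Mir207 in Dnaja1 and Mir700 in Rcan3. In TPM Mir700 had the opposite direction in mNPC (1.05 and 2.11) and mCtx (0.18 and 0.21).

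Other exonic loci changed direction between cell types. Mir5116, in the 3'UTR of Mmgt1, was at 1.66, 1.92 and 1.57 CPM in mESC chromatin and 0.368, 0.565 and 0.524 in mESC cytoplasm (log2 change 1.79, SE 0.37). In mNPC it was at 0.603, 0.801 and 1.34 against 4.99, 8.37 and 7.30, and in mCtx at 0.512, 0.204 and 0.432 against 8.81, 5.28 and 6.11 (log2 changes -2.93 and -4.10). The libraries did not overlap in any cell type, and Mmgt1 changed by 1.61, -2.83 and -3.42. Mir5114, which overlaps coding sequence and the 3'UTR of the fatty acid desaturase gene Scd2, was not called in mESC (0.59) and was lower in chromatin by -1.38 and -3.05 in mNPC and mCtx, with Scd2 at 0.81, -1.23 and -2.08. Mir331, in the 3'UTR of Vezt, was higher in chromatin in each cell type. It had no read in mESC cytoplasm (at least 10.1-fold higher in chromatin) and changed by 1.66 in mCtx, with Vezt at 3.00 in mESC and 0.93 in mCtx.

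Set against their hosts directly, intronic and exonic loci gave different pictures. Among the 83 intronic loci with a tested host, the host was lower in chromatin at 45 in mESC, 47 in mNPC and 40 in mCtx. The locus was higher while the host was lower at 42, 40 and 29, and both were higher at 18, 17 and 12. The shares over all genes within a host were not computed, so these counts stand without a background. Among the 41 exonic loci the host was lower at 6, 8 and 6, and no locus was higher with its host lower. Across loci, Pearson's r between the log2 changes of locus and host was 0.21, 0.22 and 0.27 for the intronic loci and 0.80, 0.91 and 0.88 for the exonic ones. These are descriptions: reads of a locus that also count for its host enter both values, and loci of one host share it. Of the 28 members, in 22 Rpl and Rps genes, 25, 23 and 19 were higher in chromatin (34.4%, 27.5% and 26.2% of all genes). The host was lower for all 28 in each cell type (21.6%, 21.3% and 24.4% of all genes). A host with several members is counted for each of them. Mir3091 was the 1 lower member in mESC and mNPC.

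**Figure D3:**
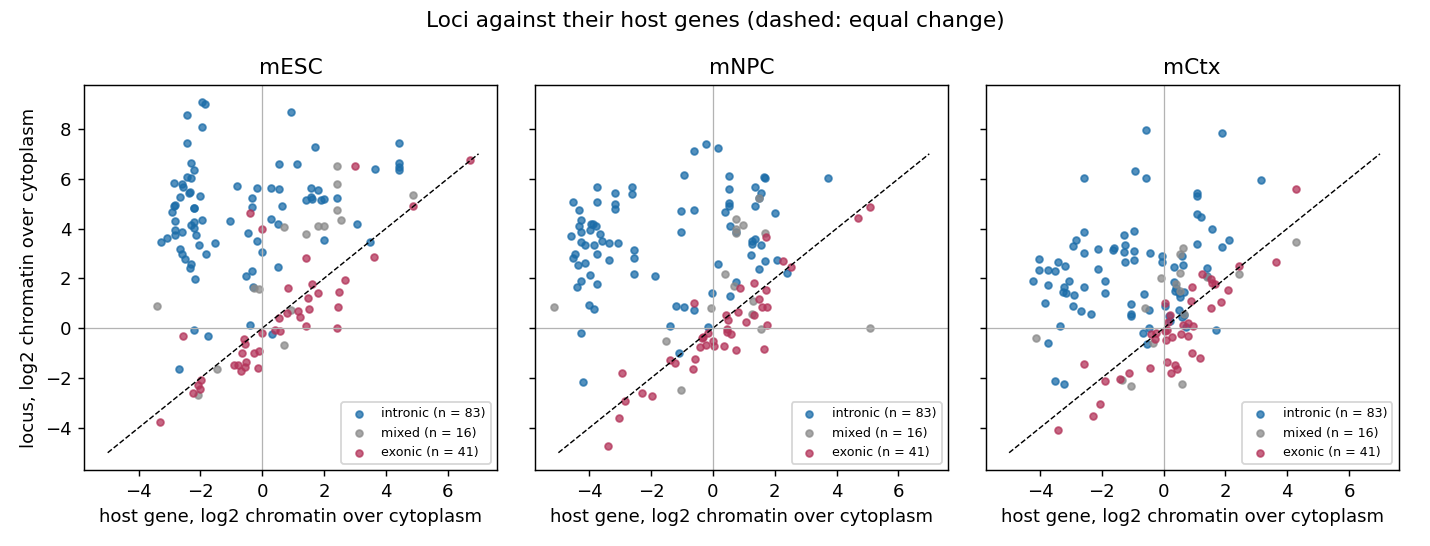
Log2 change of chromatin over cytoplasm of each locus (vertical) against that of its host gene (horizontal) in mESC, mNPC and mCtx, for the 83 intronic, 16 mixed and 41 exonic loci with a tested host. Exonic loci lie near the dashed line of equal change and intronic loci mostly above it.

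The same comparison was then made per host read. This test took the host count as an offset for 820 nested pairs, 140 of them with a member. A pair was any gene, of whatever length, lying wholly within a longer gene on the same strand. The shares over all pairs are thus not those of short genes alone. In mESC 96 of the 140 members held more reads per host read in chromatin, where 49.4% of all pairs did, and 5 fewer, where 8.78% did. In mNPC the counts were 88 (44.3% of all pairs) and 7 (12.3%), and in mCtx 73 (37.6%) and 11 (10.9%). The intronic loci had 80, 76 and 66 of 83 higher and none lower (medians 5.40, 5.50 and 3.45), and the exonic ones 5, 3 and 1 of 41 higher and 4, 6 and 9 lower. Snora73a, Mir568, Mir331, Mir3061 and Snora9 were the 5 exonic loci higher in mESC, Snora73a, Mir331 and Mir3061 the 3 in mNPC, and Mir1906-1 the 1 in mCtx.

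Per 1000 Rpl13a reads, Snord34 had 28.3, 45.6 and 48.0 in the mESC chromatin libraries and 0.108, 0.155 and 0.109 in the cytoplasmic ones. Its pooled ratios in chromatin were close in the 3 cell types, at 41.6, 48.5 and 43.8 per 1000 in mESC, mNPC and mCtx, against 0.126, 0.0687 and 0.105 in cytoplasm. Mir25 had 95.0, 74.4 and 82.0 per 1000 Mcm7 reads in chromatin and 0.0812, 0.311 and 0.762 in cytoplasm. Snora65 had 116, 181 and 218 per 1000 Rpl12 reads in chromatin and 2.76, 7.54 and 20.7 in cytoplasm, so it differed by log2 changes of 5.40, 4.60 and 3.37 although its own level was called only in mESC. Mir686 had 249, 252 and 328 per 1000 Psmb5 reads in chromatin and 341, 376 and 378 in cytoplasm. Its log2 changes per host read were -0.44, -0.59 and -0.20, which passed the p threshold but not the minimum change.

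Summed over the 89 snoRNA loci, the nucleoplasm lay at 458 to 534 CPM in mESC, between 736 to 1344 in chromatin and 46.9 to 70.3 in cytoplasm. In mNPC the sums were 310 to 374 in chromatin, 74.2 to 88.6 in nucleoplasm and 52.9 to 56.7 in cytoplasm, and in mCtx 330 to 334, 121 to 139 and 84.9 to 99.9. Against cytoplasm 114 loci were higher in mESC nucleoplasm (27.5% of all genes) and 9 lower (8.95%), 50 (16.4%) and 8 (8.56%) in mNPC, and 44 (11.7%) and 10 (9.57%) in mCtx. With library totals in place of TMM scaling the mNPC split was 40 higher and 14 lower. A fit of only the libraries compared tested 75 members there and called 26, 21 higher and 5 lower. Intronic loci were higher at 81, 35 and 31 of 91, with median log2 changes of 3.73, 1.34 and 0.71. The 2 intronic loci lower in mNPC were Snora65 (-1.37) and Snora5c (-1.62), the second losing its call without mNPC nucleoplasm replicate 1 or 3 (-1.38 and -1.27). The 2 lower in mCtx were Mir3091 (-1.21) and Snord64 (-1.13). Whether the step differed between cell types was not tested for the nucleoplasm.

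Against nucleoplasm, chromatin was higher at 76 loci in mESC (16% of all genes) and lower at 12 (17.4%), higher at 101 (22.7%) and lower at 14 (21.7%) in mNPC, and higher at 78 (17.4%) and lower at 12 (16.1%) in mCtx. Snord34 stepped from 3.43, 4.28 and 5.89 CPM in mESC nucleoplasm to 0.295, 0.395 and 0.233 in mESC cytoplasm, and in mNPC from 6.23, 5.70 and 5.96 in chromatin to 0.817, 0.395 and 0.766 in nucleoplasm. Mir25 was higher in chromatin than in nucleoplasm by 3.74, 4.29 and 4.21 in mESC, mNPC and mCtx, with 1.85, 0.909 and 1.39 CPM in mESC nucleoplasm. Mir5114 had its highest values in mNPC nucleoplasm, at 404, 445 and 329 CPM, above 57.7, 54.7 and 47.9 in chromatin and 137, 118 and 164 in cytoplasm. Mir704, in coding sequence of the disulfide isomerase gene Pdia4, was lower in chromatin than in nucleoplasm by -2.66, -2.96 and -1.46, with 42.1, 39.9 and 28.3 CPM in mNPC nucleoplasm. In TPM its direction was the opposite in mESC (0.84 and 1.87) and mNPC (3.47 and 5.68).

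Between cell types, chromatin levels of snoRNA loci fell from mESC to mNPC. Of the 165 loci 85 were lower in mNPC chromatin (31.9% of all genes) and 19 higher (25.3%). None of the snoRNA loci was called higher: 42 of 58 Snord and 22 of 31 Snora loci were lower (median log2 changes -1.73 and -1.43, against -0.14 over all genes). Mir loci had 21 lower and 19 higher. Without the mESC libraries numbered 1 the counts were 96 lower and 15 higher. In these bulk samples fewer cells of a type and less RNA per cell cannot be told apart. Of the 88 called members with a host 73 had a host called in the same direction and none in the opposite one. The share over all genes within a host was not computed, so this count stands without a background. Reads of a locus may also count for its host, and loci of one host share it. Of the 28 members in Rpl and Rps genes 20 were lower and none higher.

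Snord96a fell from 61.7, 117 and 113 CPM in mESC chromatin to 22.7, 24.1 and 20.6 in mNPC chromatin, by 2.11 on the log2 scale (SE 0.22), and Rack1 fell by 2.20. Snora73b fell from 27.2, 62.4 and 61.4 to 5.67, 7.02 and 4.62 (log2 change -3.11, SE 0.33), the Snhg12 loci by log2 changes from -1.88 (Snora44) to -2.89 (Snord99), with Snhg12 at -2.35. At all of these the mESC libraries lay above the mNPC ones. The Gas5 members were mixed: Snord47 fell by 1.51, Mir5117 rose by 1.10, and Snord78 (0.21) and Snord80 (0.37) were not called, with Gas5 at -0.14.

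Per host read few loci differed between these chromatin groups: 9 of 140 were higher (8.66% of all pairs) and 7 lower (14.6%). The lower ones were Mir692-2, Snord47, Snord14d, Mir3104, Snord68, Mir331 and Snord60. For Snord68, which M21 places in Rpl13, the host by read count was Gm20388. With the smallest containing gene as host its log2 change of -2.16 became 0.68.

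Several microRNA loci had most of their chromatin reads in one cell type. A locus without reads elsewhere reached the summed count only through that cell type, so its presence among the members is no support for the difference. Mir363 and Mir92-2 are neighbours on the X chromosome, at chrX:52741693-52741767 and chrX:52741838-52741928 on the minus strand, and share the seed AUUGCAC. Mir363 was at 8.04, 16.9 and 8.94 CPM and Mir92-2 at 4.38, 9.66 and 4.61 in mESC chromatin, and neither had a read in any mNPC or mCtx library. They were at least 216-fold and at least 119-fold lower in mNPC chromatin. Mir692-2, in Grik3, was at 75.4, 41.1 and 32.3 CPM in mESC chromatin and 403, 327 and 216 in mESC cytoplasm, and had 1 read in mNPC chromatin (ratio 2725, 95% counting interval 489 to 107659). Grik3, a glutamate receptor gene, fell by 3.32, and Mir692-2 had 338 per 1000 Grik3 reads in mESC chromatin and 1.19 in mNPC.

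Mir9-2, in the non-coding gene C130071C03Rik at chr13:83738806-83738892, encodes a microRNA known from neural progenitors. It had no read in mESC and was at 1.86, 1.60 and 1.81 CPM in mNPC chromatin (at least 39.3-fold higher) and 1.84, 1.89 and 2.02 in mCtx chromatin. In mCtx it was higher in cytoplasm, at 6.62, 5.79 and 5.65 CPM (log2 change of chromatin over cytoplasm -1.65). Mir568, in the 3'UTR of Zbtb20 (a transcription factor of neural development), was at 0.244, 0.0815 and 0.179 CPM in mESC chromatin and 5.12, 4.05 and 4.56 in mNPC, a log2 change of 4.74 (SE 0.41), with Zbtb20 at 3.06. Mir678, in the 3'UTR of Prmt2, rose at both steps, from 0.633, 0.693 and 1.03 to 7.93, 6.88 and 5.29 and then to 23.0, 22.6 and 20.9 CPM.

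From mNPC to mCtx chromatin 29 loci were lower (21.4% of all genes) and 21 higher (23.5%). With library totals as the scale the split was 40 lower and 18 higher. This comparison shares the 3 mNPC chromatin libraries with the one above. Of the Snord loci 11 were lower and 2 higher (Snord57 and Snord88c), of the Snora loci 8 were lower and 1 higher (Snora70), and of the Mir loci 10 were lower and 18 higher. Of the 39 called members with a host 15 had a host called in the same direction and none in the opposite one, again without a background over all pairs. Per host read 26 of 140 were lower (19.8% of all pairs) and 5 higher (8.54%). The higher ones were Mir5113, Snora33, Mir207, Mir331 and Mir93. Snord14d was among the lower ones at 2.57 per 1000 Hspa8 reads against 12.1 in mNPC, with Hspa8 higher by 2.03 and Snord14d itself not called (-0.20).

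Several rises into mCtx lay in the imprinted Dlk1-Dio3 region of chromosome 12, whose maternally expressed transcripts include Meg3. Mir1906-1, in a Meg3 exon at chr12:109544541-109544620, was at 39.4, 43.5 and 49.8 CPM in mESC chromatin, 0.0502, 0.283 and 0.268 in mNPC and 192, 211 and 173 in mCtx. Mir770, further along Meg3, was at 1.36, 2.41 and 2.06 in mESC, without a read in mNPC and at 95.5, 82.8 and 87.3 in mCtx, at least 1654-fold above mNPC. Mir3072 (9.98, 10.5 and 9.22 CPM in mCtx), Mir410 (7.58, 7.87 and 7.11) and Mir433 (2.92, 4.14 and 4.08, with Rtl1 on the opposite strand) also had no read in mNPC chromatin, and were at least 185-fold, 140-fold and 69.5-fold higher in mCtx. All 5 loci had the order mNPC, mESC, mCtx from low to high in chromatin with no overlap between the cell types. Lack of overlap was common among the 165 members: 118 between mNPC and mESC chromatin and 109 between mCtx and mNPC chromatin. The share over all genes was not computed. These 5 loci were named for their rise into mCtx and lie in the same region, Mir1906-1 and Mir770 both in Meg3. They are therefore not independent cases. Meg3 fell by 8.99 from mESC to mNPC and rose by 11.67 to mCtx.

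Mir29c and Mir29b-2, which share the seed AGCACCA and lie on chromosome 1 outside any host, rose by log2 changes of 3.87 and 5.54 from mNPC to mCtx chromatin. Mir29c was at 12.1, 11.6 and 10.8 CPM in mCtx chromatin. Mir3078, which M21 places in the Mir124a-1 host transcript, was at 0.351, 0.330 and 0.0670 CPM in mNPC chromatin and 17.6, 15.6 and 18.3 in mCtx (log2 change 5.99, SE 0.40). Mir92-1, in the exon of the non-coding Mir17hg, was higher in mESC than in the 2 neural systems, as the plot of chromatin levels by cell type shows.

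**Figure D4:**
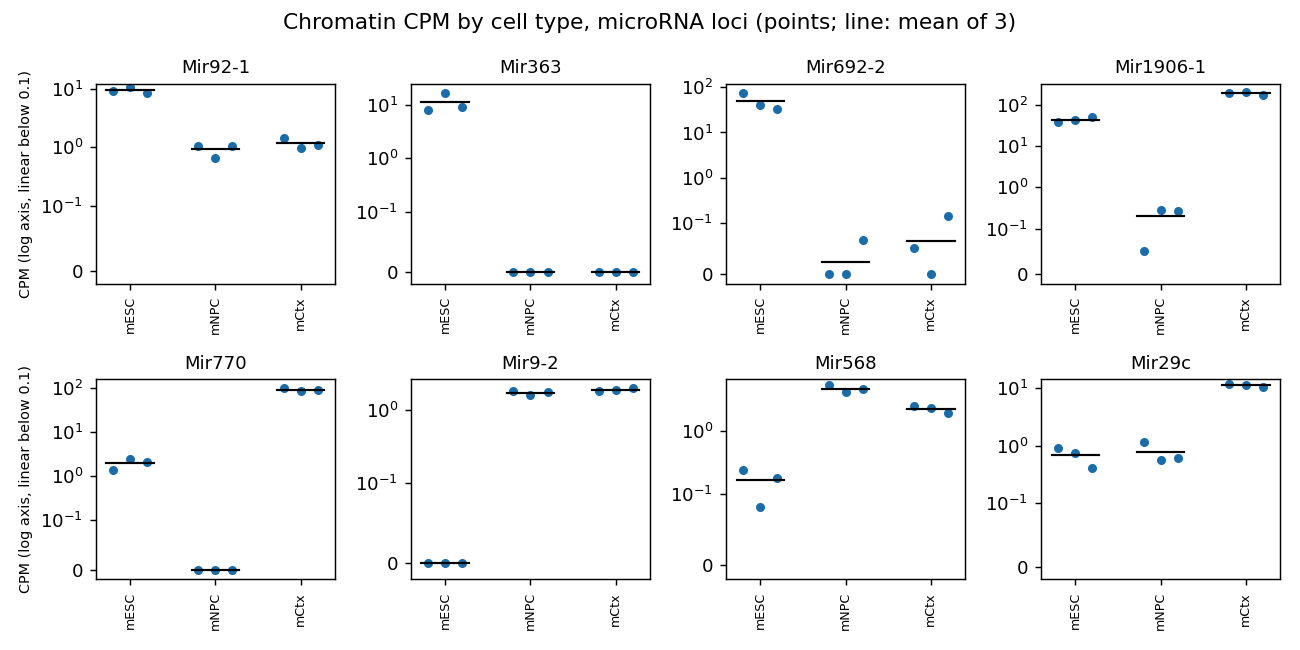
Chromatin CPM of 8 microRNA loci in mESC, mNPC and mCtx (log axis that turns linear below 0.1, points are the 3 libraries, lines their mean). Mir92-1, Mir363 and Mir692-2 are highest in mESC, Mir9-2 and Mir568 are low or at 0 there, and Mir1906-1, Mir770 and Mir29c are highest in mCtx.

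The last comparison tested whether the chromatin to cytoplasm contrast itself differed between cell types. The difference is of signed log2 values, so a higher value may be a less negative one. From mESC to mNPC the log2 value was lower at 45 loci (17.7% of all genes) and higher at 8 (10.3%), and from mNPC to mCtx lower at 50 (11.4%) and higher at 6 (7.68%). The 2 tests share the mNPC libraries. No snoRNA locus was called higher in either step, though some differences that were not called were positive. Called lower were 18 Snord and 17 Snora loci in mNPC than in mESC, and 25 and 11 in mCtx than in mNPC. The median difference was -1.12 and -0.89 over the members and -0.19 and -0.04 over all genes. Without the mESC libraries numbered 1 the first counts were 51 lower and 5 higher. The size of a difference that involves a group with few reads depends on the fit's prior count.

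Snora73a, with no group under 79 reads, had log2 contrasts of 4.0 in mESC and 1.03 in mNPC, a difference of -2.97 (SE 0.42, adjusted p = 2.7e-06). Mir5116 went from 1.79 to -2.93 (difference -4.72, SE 0.48). Mir3064 went from -0.21 to 1.18 (difference 1.38, SE 0.18), with at least 2607 reads in each group. Mir3076, in coding sequence of the transketolase gene Tkt, was at 15.6, 18.7 and 17.4 CPM in mCtx chromatin and 18, 21.7 and 18.8 in mCtx cytoplasm, against 11.7, 9.94 and 9.45 and 65.0, 60.2 and 63.4 in mNPC. Its log2 contrast went from -2.60 in mNPC to -0.18 in mCtx, a difference of 2.42 (SE 0.22, adjusted p = 7.4e-09), so the fractions lay closer together in mCtx. In TPM this difference had the opposite sign (-1.09 and -2.15 with pseudocounts of 1 and 0.1).

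**Figure D5:**
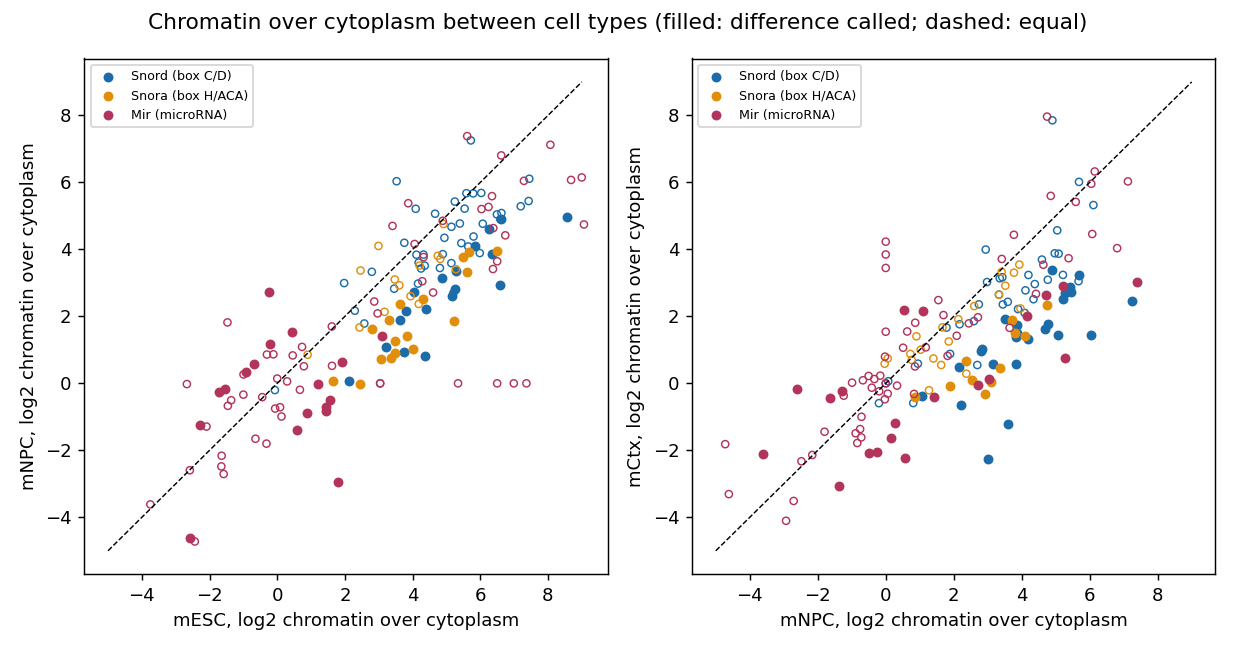
Log2 chromatin over cytoplasm of each locus in mNPC against mESC (left) and in mCtx against mNPC (right), coloured by class, filled where the difference was called. Filled Snord and Snora points all lie below the dashed line of equal contrast.

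Genes of the machinery that makes and uses these RNAs were read from 4 lists. Of 12 genes of the box C/D particle and its assembly, 7 were lower and 1 higher in mESC chromatin than in cytoplasm, 5 and 1 in mNPC, and 1 and 1 in mCtx, and 10 were lower in mNPC than in mESC chromatin. Over all genes 21.6%, 21.3% and 24.4% were lower in chromatin than in cytoplasm, and 31.9% lower in mNPC than in mESC chromatin. The higher one was Nop56 in each (1.12, 1.24 and 1.55). Fbl, the methyltransferase of the particle, changed by -3.16, -2.69 and -0.96, and from mESC to mNPC chromatin Fbl changed by -1.56 and Nop56 by -2.54. All 7 genes of the box H/ACA list were lower in mNPC than in mESC chromatin, among them Nhp2, a core protein (-3.05), and Tcof1, a nucleolar factor (-3.31). From mNPC to mCtx 5 of the 12 and 3 of the 7 were higher and none lower, where 23.5% of all genes were higher.

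Of 15 genes of microRNA processing and action, 4, 9 and 9 were higher in chromatin than in cytoplasm in mESC, mNPC and mCtx, and 1, 0 and 0 lower. Over all genes 34.4%, 27.5% and 26.2% were higher, so the mESC count of 4 lay under that share. Ddx17, a helicase that binds the Drosha complex, changed by 1.14, 2.94 and 1.34. Between chromatin groups 3 were higher and 2 lower in mNPC than in mESC, and 1 and 2 in mCtx than in mNPC, against 25.3% and 31.9%, then 23.5% and 21.4%, of all genes. Of 13 genes listed for intron turnover and nuclear RNA decay 12 were found and tested, and chromatin held more of 1, 4 and 8 and less of 3, 1 and 1, the 4 higher in mNPC and the 3 lower in mESC being near the shares over all genes. Xrn2, a nuclear 5' to 3' exonuclease, was at -0.50, 0.99 and 1.37 and Exosc10, an exosome nuclease, at -0.41, 0.95 and 1.33. Only the last value of each was called.

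The deposited abundances per gene, scaled by length (TPM), were also read at these loci. Of the 165, 73 were listed at 0 in all 27 libraries and 71 had values enough to be tested. Of the loci called in the counts and tested here, 44 of 66 in mESC, 42 of 57 in mNPC and 28 of 41 in mCtx had the same sign in TPM. By counts and by TPM alike, 41, 36 and 24 were called the same way and 4, 4 and 0 in opposite ways. A locus at an exact 0 there is only listed at 0, since an exact 0 can be a failed estimate.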

How the data were processed

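Polyadenylated RNA of 27 libraries (9 groups of 3) was analysed. The authors' deposited count table holds raw read counts per gene, and their second deposited table holds TPM per gene. The submitters' processing notes name STAR, featureCounts, kallisto 0.43.0 and mm10; the annotation release and the strand setting of the counting were not given in the sources used. Each gene's length in the table is its whole span, so reads in introns could be counted. Members and gene lists were chosen with earlier results of these data known.

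Counts were fitted in edgeR 4.0.16 (R 4.3.3) with TMM scaling and quasi-likelihood tests, 1 mean per group, on the 18226 genes left by its expression filter. A call needed a Benjamini-Hochberg adjusted p below 0.05 over all genes and a log2 change of at least 1. Adjusted p-values in the text come from this fit. The locus-per-host fit used the log of the host count plus 0.5 as an offset, with the host taken as the containing gene of at least 400 bases on the same strand with the highest summed count. CPM are counts scaled to TMM library sizes. TPM were tested with limma 3.58.1 on log2(TPM + 1). Alternatives used DESeq2 1.42.0, other scalings and filters, and left out each library in turn. Where a group had no read, folds are against 3 reads over the group, and with 1 to 3 reads a 95% exact interval of the ratio is given. Intervals and floors cover counting error only.

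Same-numbered mESC fractions deviated together (correlations 0.31 to 0.716 over genes), so the numbers may pair the mESC libraries. Libraries of different numbers were not compared, and the main fit used no pairing. The labels call the replicates biological without naming separate cultures or animals, so p-values measure the spread between these samples. The fits were tested on simulated data. The genes named were the 6 members per class with the highest summed count; the called members with the largest change per direction, with at least 1 CPM and no overlap of libraries (6 for chromatin against cytoplasm, cell types and shifts, 3 elsewhere, 4 per host); hosts with 3 or more members; and 2 genes per list. Any other gene was chosen after its values were seen. The values of 1 locus are not reported here.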

Additional observations from a re-analysis of the deposited data

Results flagged for a closer look

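The contrast of chromatin over cytoplasm differed between cell types at the following loci by a test of the difference itself (edgeR quasi-likelihood, adjusted over all genes), and the differences are of signed log2 values. From mESC to mNPC the value was higher at Mir3113 by 2.97, Mir719 by 1.46, Mir3064 by 1.38, Mir678 by 1.38, Mir1893 by 1.27 and Mir1902 by 1.26. It was lower at Mir5116 (-4.72), Snord57 (-3.65), Snord14d (-3.59), Snord60 (-3.55), Snora16a (-3.36) and Snora73a (-2.97). From mNPC to mCtx it was higher at Mir3076 by 2.42, Mir5113 by 1.66, Mir686 by 1.5, Mir705 by 1.23, Mir343 by 1.07 and Mir546 by 1.05. Of these, Mir3076 (-2.60 to -0.18), Mir686 (-3.61 to -2.11), Mir705 (-1.65 to -0.43) and Mir546 (-1.29 to -0.24) became less negative, as did Mir678 (-1.54 to -0.16) and Mir719 (-1.71 to -0.25) in the first step. The value was lower at Snord64 (-4.81), Snord91a (-4.80), Mir3078 (-4.51), Mir1898 (-4.36) and Snord35b (-3.62).

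The groups behind Snord14d and Snord35b hold as few as 2 reads, those behind Snord60 4, those behind Snord57 7, and at Snord91a, Mir3078 and Mir1898 1 group had no read, so the size of these differences depends on the fit's prior count. Without the mESC libraries numbered 1, a choice made after the data were seen, Mir1893 and Mir1902 lost their call (adjusted p = 0.0505 and 0.0780). Leaving out 1 library ended the call of Mir719 (without mNPC chromatin replicate 2), Snord60 (without mNPC cytoplasm replicate 2) and Snord91a (without mCtx cytoplasm replicate 2). The calls of Mir1893, Mir1902, Mir705, Mir343, Mir546 and Snord14d were each lost under several single omissions, with differences between 0.86 and 1.35 for the microRNA loci and between -3.57 and -3.12 for Snord14d.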

How the results depend on the processing

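Counts of called members stayed within 1.5 times under DESeq2, RLE size factors, library totals, a filter of at least 1 CPM in 3 libraries, no filter, and the host alternatives. Leaving out each library gave 141 to 143, 119 to 122 and 105 to 109 for chromatin over cytoplasm in mESC, mNPC and mCtx, 118 to 125, 49 to 55 and 47 to 54 for nucleoplasm over cytoplasm, and 75 to 93, 101 to 116 and 76 to 86 for chromatin over nucleoplasm. It gave 95 to 104 and 50 to 52 for the chromatin cell type comparisons, 43 to 57 and 46 to 56 for the shifts, and per host 96 to 103, 89 to 96, 84 to 87, 13 to 19 and 28 to 32. A fit of only the libraries compared tested 75 members and called 26 in mNPC nucleoplasm over cytoplasm. With no minimum fold change 78 were called from mNPC to mCtx chromatin, and per host 40 from mESC to mNPC and 60 from mNPC to mCtx.

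With the replicate block 140, 121 and 110 members were called for chromatin over cytoplasm, 125, 60 and 57 for nucleoplasm over cytoplasm and 58 and 63 for the shifts. Snord14d lost its shift call with the block (-3.54, adjusted p = 0.0543) and Snora73a its mCtx call (0.99), while Snord1b gained one in mCtx; the block changed no other call of a locus named by the rule. Same-numbered libraries correlated at -0.117 to 0.253 in mNPC and 0.0272 to 0.137 in mCtx, so they deviated together less than in mESC. Low correlations do not show that these fractions came from separate preparations. No block was run between cell types, whose numbers do not pair. Library totals moved the median of all genes for chromatin over cytoplasm to 0.88, 0.43 and 0.24. On that scale Snora65 passed in mNPC (1.08), Snora73b in mNPC and mCtx (1.04 and 1.14), Snord65 in mCtx (1.23) and Mir5114 in mESC (1.12), and Mir719 missed the minimum in mESC nucleoplasm over cytoplasm (-0.98). DESeq2 lost Mir363 there (adjusted p = 0.289). Per host, Mir207 lost its rise into mCtx chromatin with no filter and without any 1 of 5 chromatin libraries (0.72 to 1.38).

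Limma on log2(TPM + 1) and log2(TPM + 0.1) tested 71 members. It called 46 and 44, 44 and 40, and 28 and 27 for chromatin over cytoplasm in mESC, mNPC and mCtx, 35 and 34, 11 and 9, and 9 and 7 for nucleoplasm over cytoplasm, 29 and 15, 45 and 39, and 29 and 22 for chromatin over nucleoplasm, 21 and 15 and 18 and 15 between cell types, and 18 and 12 and 13 and 10 for the shifts. Chromatin over cytoplasm kept its sign in TPM at 44 of 66, 42 of 57 and 28 of 41 called loci (mESC, mNPC, mCtx). The reversals listed next (pseudocount 1, then 0.1) are only those of loci named by the rule, and the cause was not tested. In mESC chromatin over cytoplasm they were Mir3076 (1.67, 3.72), Mir5134 (2.07, 4.17), Snord22 (-2.86, -5.99), Snora81 (-0.96, -2.01), Snora44 (-1.50, -3.50) and Snord14c (-1.21, -3.13). In mNPC they were Mir700 (1.05, 2.11), Mir3076 (2.30, 4.43), Snora61 (-0.38, -0.99), Snora81 (-1.73, -2.84), Snord33 (-1.76, -3.81), Snora44 (-1.78, -2.98), Snord14c (-0.83, -1.85) and Snord14d (-2.72, -5.81), and in mCtx Mir700 (0.18, 0.21). For chromatin over nucleoplasm they were Mir704 in mESC (0.84, 1.87) and mNPC (3.47, 5.68), Snord14c in mNPC (-0.93, -1.97) and Mir700 in mCtx (1.03, 2.09). For the shift from mNPC to mCtx they were Mir3076 (-1.09, -2.15) and Mir343 (-1.26, -2.35). Snord68 per host reversed with the smallest containing gene as host (0.68).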
